A study of Mus musculus with 12 samples.

Results

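The genes described here make, regulate, export and store cholesterol. The list held sterol synthesis enzymes, the SREBP system, the liver X receptors with their targets, and the enzymes that esterify sterol. A gene was included when the deposited table had a row with its symbol. In all, 31 genes of the 23329 rows met that rule: 18 synthesis enzymes, the sterol transfer protein Stard4, 5 genes of SREBP regulation, 5 genes of the liver X receptor and efflux group, and the 2 esterification enzymes. The row for methylsterol monooxygenase carries the older symbol Sc4mol in place of Msmo1. All 31 genes passed the filter on low counts in every comparison.

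Wild-type C57BL/6J mice aged 2 months received either an isotype control antibody or AC H6, which activates LTbR, the lymphotoxin beta receptor. The dose was 100 ul of a solution at 1 mg per ml, and spleen and duodenum were taken after 24 hours. Each of the 4 groups (duodenum isotype, duodenum AC H6, spleen isotype, spleen AC H6) has 3 libraries. The comparison of treated with control tissue asks how the transcriptome responds to LTbR induction, and the members show how sterol genes took part in that response.

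Cells build cholesterol from acetyl-CoA through mevalonate, squalene and lanosterol. When membrane sterol falls, SCAP escorts the SREBP transcription factors out of the endoplasmic reticulum and they switch on the synthesis enzymes and INSIG1, while INSIG proteins hold SCAP back when sterol is plentiful. Oxysterols activate the liver X receptors, which switch on the exporters ABCA1 and ABCG1 and MYLIP, a ubiquitin ligase that promotes degradation of lipoprotein receptors. In the small intestine, enterocytes absorb dietary sterol, synthesise their own, esterify it with SOAT2 for chylomicrons and return part of it to the lumen. In the spleen, macrophages clear aged red cells and handle the cholesterol of their membranes.

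Promoter sequence was available for 25 of the 31 members in the RefSeq table for GRCm38.p6, in windows from 250 bases before to 50 bases after the start site. Stard4, Fdps, Fdft1, Sqle, Abcg1 and Soat2 had no window. The sequences below show members from both sides of the main contrast: Hmgcs1 and Insig1 fell and Abca1 and Mylip rose in the duodenum under AC H6. Only bases before the annotated gene are printed, 5′ to 3′ on the gene's own strand. Capitals mark matches, on either strand, to the sterol regulatory element core TCACNCCAC, the CCAAT box (ATTGG on the other strand) and the E-box CACGTG, and the capitalised matches do not overlap each other. Hmgcs1 is given at chr13:119690101-119690350 on the plus strand, Insig1 at chr5:28071162-28071362 on the plus strand, Abca1 at chr4:53159896-53160145 on the minus strand and Mylip at chr13:45389492-45389741 on the plus strand.
Hmgcs1: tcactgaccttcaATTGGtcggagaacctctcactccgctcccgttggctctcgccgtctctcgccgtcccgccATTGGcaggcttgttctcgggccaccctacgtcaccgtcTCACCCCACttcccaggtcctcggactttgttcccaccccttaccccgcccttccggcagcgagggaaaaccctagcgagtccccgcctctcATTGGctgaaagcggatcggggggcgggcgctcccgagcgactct
Insig1: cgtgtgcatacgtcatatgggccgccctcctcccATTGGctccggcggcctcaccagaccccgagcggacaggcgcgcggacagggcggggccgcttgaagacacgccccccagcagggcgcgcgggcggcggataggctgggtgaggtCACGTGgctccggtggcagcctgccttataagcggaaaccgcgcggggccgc
Abca1: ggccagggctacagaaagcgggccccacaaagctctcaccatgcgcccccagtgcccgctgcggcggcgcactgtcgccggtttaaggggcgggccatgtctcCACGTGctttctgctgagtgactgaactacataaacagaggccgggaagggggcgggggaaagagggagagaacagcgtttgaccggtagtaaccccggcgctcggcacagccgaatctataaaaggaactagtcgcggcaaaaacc
Mylip: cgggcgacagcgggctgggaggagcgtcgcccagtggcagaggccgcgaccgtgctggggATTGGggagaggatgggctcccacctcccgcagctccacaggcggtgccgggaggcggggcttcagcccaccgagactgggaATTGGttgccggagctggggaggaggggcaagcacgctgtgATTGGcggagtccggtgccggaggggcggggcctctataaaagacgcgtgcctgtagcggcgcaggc

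The Hmgcs1 window held 1 match to TCACNCCAC, whose first base lay at -137 from the start site, and 4 CCAAT boxes in its whole length, the last of which lies beyond the printed bases. Insig1 held a CCAAT box at -216 and an E-box at -101, the form of site that SREBP proteins also bind. All positions count from the RefSeq start site of the window. The printed Insig1 bases stop short of that site, where the gene begins in the GENCODE annotation. Abca1 held an E-box at -147, and Mylip held 3 CCAAT boxes at -190, -108 and -67. The CCAAT box, bound by NF-Y, which acts with SREBP proteins at many sterol genes, was found in 14 of the 15 synthesis genes with a window, against 41.1% of all genes and 37.4% of all windows of that length. The GC box GGGCGG, also searched on both strands, was in 14 of those 15 genes, against 38.2% of all genes. Neither box was particular to the enzymes. Of the 5 genes of SREBP regulation, 4 held a CCAAT box and 5 a GC box, and Soat1 held both. Of the 4 liver X receptor and efflux genes with a window, 1 held a CCAAT box and 2 a GC box. CACGTG was in 3 of the 15, against 8.09% of genes, and TCACNCCAC in Hmgcs1 alone of the 25 members, against 1.44% of genes. The direct repeat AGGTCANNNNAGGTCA, a strict form of the liver X receptor element, was in none of the 25 member windows and in 5 of 32851 windows overall. Forms that differ from these letters were not searched for, so a window without a match can still hold such an element. These are letter matches in short windows and are no measure of binding.

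Libraries held between 13874091 and 45847467 counts. The extraction text in the labels speaks of brains, whereas the tissue labels say spleen and duodenum. The 10 enterocyte markers summed to 30506 to 36252 CPM (counts scaled by library size) in the duodenum libraries and 41.4 to 48.9 CPM in the spleen libraries, and the 8 brain markers to at most 87.3 CPM in any library, with 1 or 2 of them at 0 throughout a group. Pancreatic amylase 2 took 2.13% of the counts of duodenum isotype 2, 8.64% of duodenum AC H6 3 and 0.745% of duodenum AC H6 2, and at most 0.182% elsewhere. Haemoglobin took 6.58% to 16.3% of the counts of the spleen isotype libraries and 13.4% to 24.3% of the spleen AC H6 libraries. In the duodenum libraries it took at most 0.0740%. Duodenum isotype 1 held 7.56% of its counts in Rn45s, the ribosomal RNA precursor, and 0.824% in Lars2, where the other libraries held at most 1.18% and 0.0889%. Levels below are CPM after a single TMM scaling of all 12 libraries. Fold changes, their standard errors (SE) and adjusted p come from the quasi-likelihood test of edgeR, adjusted over all genes tested by the method of Benjamini and Hochberg, and a gene is said to have risen or fallen when the adjusted p was under 0.05. The labels do not say that libraries came from separate mice, so the p-values measure the spread between these libraries.

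In the duodenum, all 18 synthesis enzymes fell under AC H6, and for all 18 the highest AC H6 library lay below the lowest isotype library. The falls ran from 2.17-fold for Hmgcs1 to 1.17-fold for Ebp, with a median log2 fold change of -0.71. Over all 15667 genes tested in that tissue the median was 0.01, 16.1% of genes were called lower and 18.5% higher, and 26.3% had AC H6 libraries wholly below the isotype libraries. Of the 18 enzymes, 13 lay below the 5th percentile of all genes, a log2 fold change of -0.48. The summed level of the 18 genes was 1475 to 2027 CPM in the isotype libraries and 1009 to 1089 CPM in the AC H6 libraries.

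**Figure D1:**
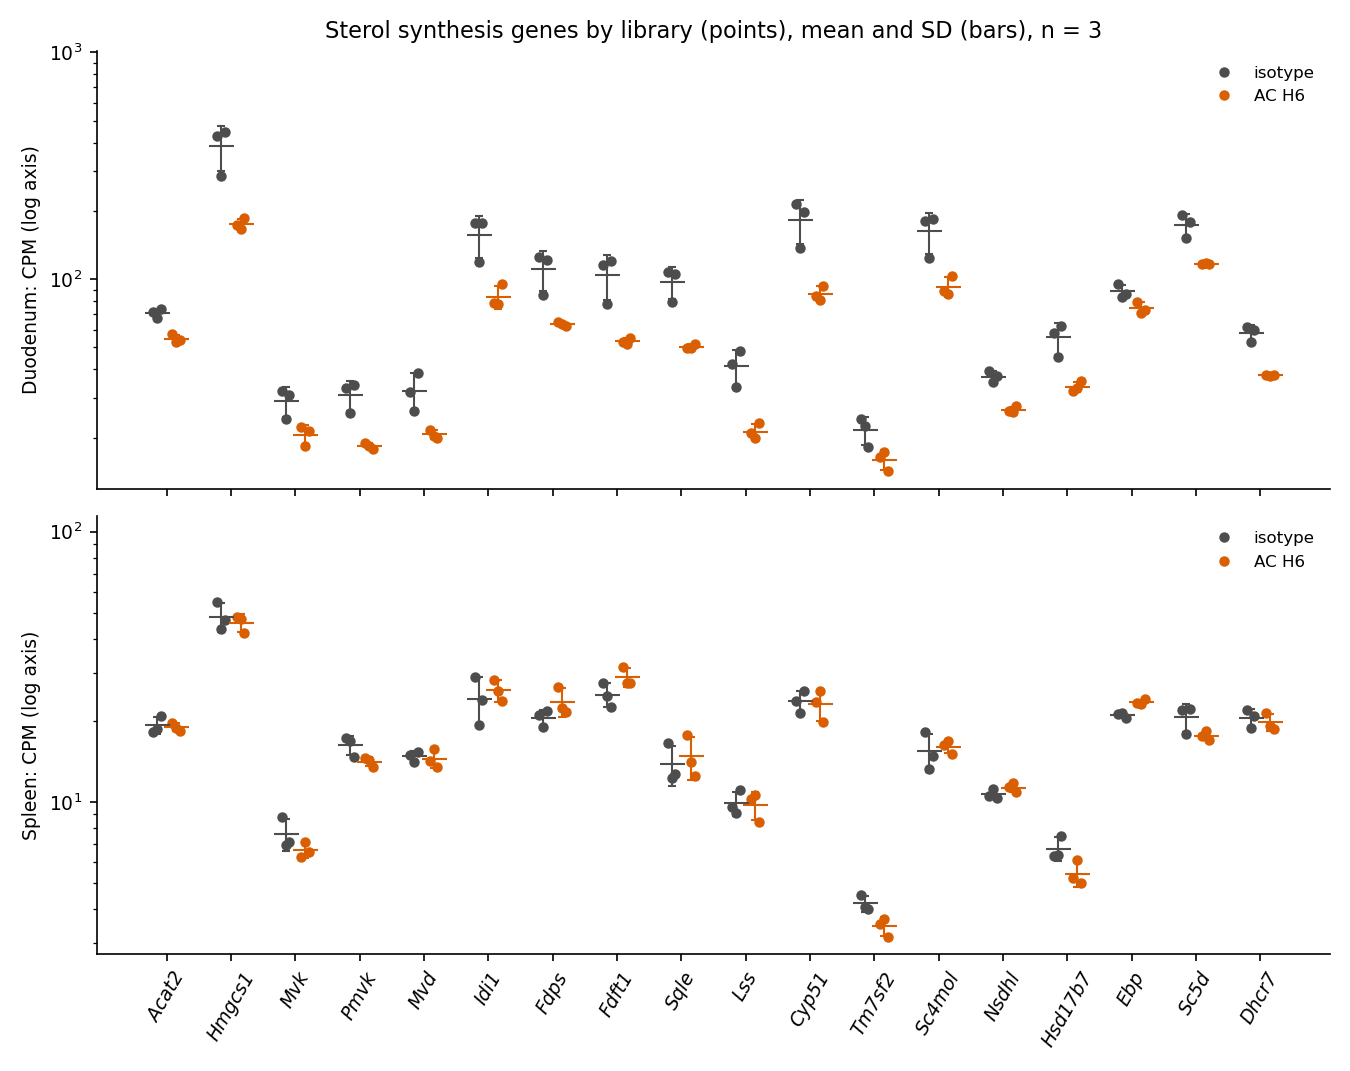
CPM on a log axis for the 18 synthesis enzymes in pathway order, duodenum above and spleen below, with each library as a point and the mean and SD as bars (n = 3). In the duodenum every AC H6 point lies below every isotype point of its gene, and in the spleen the groups overlap for most genes.

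The early enzymes make the isoprenoid units. Hmgcs1, the synthase that condenses acetyl-CoA with acetoacetyl-CoA to HMG-CoA, stood at 427, 286 and 446 CPM in the isotype libraries and 174, 167 and 186 CPM in the AC H6 libraries of the duodenum. Its level fell by 1.12 on the log2 scale (SE 0.15, adjusted p = 0.00116), and the isotype library 2 was the lowest of its group while still above every AC H6 library. Idi1, the isomerase that converts isopentenyl to dimethylallyl diphosphate, was at 176, 119 and 176 CPM under isotype and 78.8, 77.4 and 95.1 CPM under AC H6, a log2 fold change of -0.89 (SE 0.16, adjusted p = 0.00367). Acat2, the cytosolic thiolase that starts the pathway, fell less, from 67.3 to 73.5 CPM down to 52.9 to 57.2 CPM (log2 fold change -0.35, SE 0.06, adjusted p = 0.00214).

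Mevalonate is phosphorylated by Mvk and Pmvk and then decarboxylated by Mvd. Pmvk fell from 25.6 to 34.2 CPM down to 17.8 to 19.0 CPM, a log2 fold change of -0.73 (SE 0.11, adjusted p = 0.00161). Mvd was at 26.2 to 38.6 CPM under isotype and 19.97 to 21.7 CPM under AC H6 (-0.62, SE 0.13, adjusted p = 0.00714). Mvk showed the smaller difference of the 3, -0.46 (SE 0.12, adjusted p = 0.0165), and its adjusted p rose to 0.0562 without isotype library 1, 0.0594 without isotype library 3 and 0.0607 without AC H6 library 2. Fdps, which makes farnesyl diphosphate, the branch point to sterols and other isoprenoids, was at 126, 85.04 and 121 CPM under isotype and 64.8, 63.7 and 62.5 CPM under AC H6 (-0.77, SE 0.13, adjusted p = 0.00336).

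The committed steps to sterol showed falls close to that of Hmgcs1. Fdft1, squalene synthase, was at 115, 77.9 and 120.1 CPM under isotype and 53.1, 51.6 and 55.1 CPM under AC H6, and fell by 0.95 on the log2 scale (SE 0.15, adjusted p = 0.00205). Sqle, the squalene epoxidase, had 108, 79.1 and 106 CPM under isotype and 49.8, 49.7 and 51.9 CPM under AC H6, a log2 fold change of -0.93 (SE 0.11, adjusted p = 0.000658). The AC H6 libraries of both genes lay within a few CPM of each other, whereas isotype library 2 lay well below the other two isotype libraries. Lss, which cyclises epoxysqualene to lanosterol, was at 42.2, 33.4 and 48.4 CPM under isotype and 20.9, 19.9 and 23.1 CPM under AC H6 (-0.93, SE 0.13, adjusted p = 0.00113). Cyp51, the lanosterol demethylase, fell from 214, 137 and 198 CPM to 84.7, 80.8 and 93.6 CPM (-1.06, SE 0.16, adjusted p = 0.00153), the largest fall among the 18 after that of Hmgcs1.

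Enzymes of the later steps, which trim lanosterol to cholesterol, fell over a wider range. Sc4mol, the methylsterol oxidase, was at 180, 124 and 185 CPM under isotype and 88.7, 86.2 and 104 CPM under AC H6 (-0.79, SE 0.15, adjusted p = 0.00506). Hsd17b7, the 3-keto-reductase of the same demethylation, fell from 45.5 to 62.4 CPM down to 32.2 to 35.5 CPM (-0.70, SE 0.11, adjusted p = 0.00215). Dhcr7, which makes cholesterol from 7-dehydrocholesterol, had 61.8, 52.8 and 59.7 CPM under isotype and 37.9, 37.5 and 37.9 CPM under AC H6, a log2 fold change of -0.60 (SE 0.06, adjusted p = 0.000349) and the smallest adjusted p of the group. Its 3 AC H6 libraries were nearly identical in level.

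Sc5d, the lathosterol desaturase, fell by 0.55 on the log2 scale (SE 0.09, adjusted p = 0.00296), and Nsdhl, the decarboxylating dehydrogenase, by 0.46 (SE 0.06, adjusted p = 0.000794). Tm7sf2, a sterol C14 reductase, showed a log2 fold change of -0.42 (SE 0.12, adjusted p = 0.0239), and Ebp, the sterol isomerase, one of -0.22 (SE 0.07, adjusted p = 0.0442). These last values were the least secure of the 18: the adjusted p of Tm7sf2 was 0.0750, 0.0609, 0.0584 and 0.0620 without isotype library 1, isotype library 2, AC H6 library 1 and AC H6 library 3. The adjusted p of Ebp was 0.126, 0.0691, 0.133 and 0.0956 without isotype library 1, isotype library 3, AC H6 library 2 and AC H6 library 3, and 0.0569 with no filter on low counts. The 15 synthesis enzymes other than Tm7sf2, Ebp and Mvk kept an adjusted p under 0.05 in every alternative fit.

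The isotype libraries were more spread than the AC H6 libraries for these genes. Isotype library 2 was the lowest of its group for 17 of the 18 enzymes, against 29.8% of all genes tested, and the SD was smaller under AC H6 for 18 of 18, against 52.4% of all genes. Isotype library 1, the one with the high share of Rn45s, is the library without which the fewest members were called in the duodenum (21 of 31). The part of Rn45s in this was not tested beyond the fit without the Rn45s, Lars2, haemoglobin and amylase 2 rows, which called the same 26 members. The median coefficient of variation of the enzymes was 16.2% under isotype and 4.78% under AC H6, where all genes had 7.29% and 6.78%. Isotype library 2 is also one with amylase 2 counts. Without isotype library 2 and AC H6 library 3 together, 17 of the 18 enzymes still fell, with a median of -0.85, and Tm7sf2 had a log2 fold change of -0.30 (adjusted p = 0.151).

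Stard4, a soluble carrier that moves cholesterol between membranes and is itself a sterol-responsive gene, fell in the duodenum as the enzymes did. It stood at 138, 94.0 and 131 CPM under isotype and 69.5, 75.5 and 79.7 CPM under AC H6, and fell by 0.67 on the log2 scale (SE 0.14, adjusted p = 0.00696). Its groups did not overlap.

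Of the 5 genes of SREBP regulation, 2 fell in the duodenum. Insig1, the SREBP target that retains SCAP, was at 491, 268 and 446 CPM under isotype and 201, 198 and 205 CPM under AC H6, so that the control group spanned a wide range and the treated group a narrow one. It fell by 0.97 on the log2 scale (SE 0.19, adjusted p = 0.00574, 95% interval -1.41 to -0.54). Per kilobase of exon it was the most abundant member in the duodenum, at 149 ± 44 RPKM under isotype and 74.7 ± 1.2 RPKM under AC H6 (SD, n = 3), where Hmgcs1 had 111 and 50.3 RPKM.

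Srebf2, the SREBP that drives sterol genes, was at 227, 173 and 206 CPM under isotype and 159.7, 156 and 158 CPM under AC H6. The log2 fold change was -0.33 (SE 0.10, adjusted p = 0.0321), and its adjusted p lay between 0.0503 and 0.1002 when isotype library 1, isotype library 3 or any AC H6 library was left out. Srebf1, whose SREBP1c form drives fatty acid genes and is a liver X receptor target, was at 78.3, 84.2 and 78.7 CPM under isotype and 76.9, 70.2 and 69.4 CPM under AC H6 (-0.13, SE 0.06, adjusted p = 0.120). Insig2, the second retention protein, had 40.0 to 41.8 CPM under isotype and 36.2 to 38.8 CPM under AC H6 (-0.10, SE 0.05, adjusted p = 0.114). Scap, the escort itself, differed by 0.09 (SE 0.06, adjusted p = 0.245). For Srebf1 and Insig2 the groups did not overlap although the test was not passed, and for Scap they overlapped.

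Abca1, Abcg1 and Mylip, liver X receptor targets of the efflux group, rose in the duodenum, whereas Srebf1, another such target, did not (above). Outside the members, the liver X receptor target Lpcat3 and the sterol exporter genes Abcg5 and Abcg8 fell (below). Abca1, which loads cholesterol onto lipid-poor apolipoprotein A-I, was at 14.5, 23.5 and 19.5 CPM under isotype and 33.9, 31.6 and 36.3 CPM under AC H6, and its log2 fold change was 0.84 (SE 0.14, adjusted p = 0.00310). Abcg1, which exports sterol to high-density lipoprotein, was at 3.18, 4.22 and 4.28 CPM under isotype and 9.02, 8.88 and 8.24 CPM under AC H6, a 2.25-fold rise (log2 fold change 1.17, SE 0.13, adjusted p = 0.000397). Mylip had 6.72, 7.26 and 6.41 CPM under isotype and 10.5, 11.2 and 10.4 CPM under AC H6 (0.67, SE 0.09, adjusted p = 0.00108). In each case the lowest treated library was above the highest control library, as for 23.7% of all genes tested in the duodenum. The log2 fold changes of Abca1, Abcg1 and Mylip lay at percentiles 94.99, 97.4 and 92.2 of all genes. All 3 calls held in every alternative fit of the duodenum. The receptors themselves did not pass the test there: Nr1h2 differed by -0.05 (SE 0.06, adjusted p = 0.551) and Nr1h3 by -0.06 (SE 0.05, adjusted p = 0.439).

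The esterification enzymes moved in opposite directions. Soat1, the form found in macrophages and most other cells, was at 37.3, 45.2 and 36.9 CPM under isotype and 46.2, 52.3 and 47.3 CPM under AC H6 (log2 fold change 0.31, SE 0.08, adjusted p = 0.0222). Soat2, the enterocyte and hepatocyte form, was at 99.6, 84.2 and 103 CPM under isotype and 69.8, 73.0 and 77.4 CPM under AC H6 (-0.36, SE 0.09, adjusted p = 0.0141). The highest isotype library of Soat1 came close to its lowest AC H6 library, and its adjusted p was 0.0653, 0.0781, 0.0823 and 0.0555 without isotype library 1, isotype library 3, AC H6 library 2 and AC H6 library 3.

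**Figure D2:**
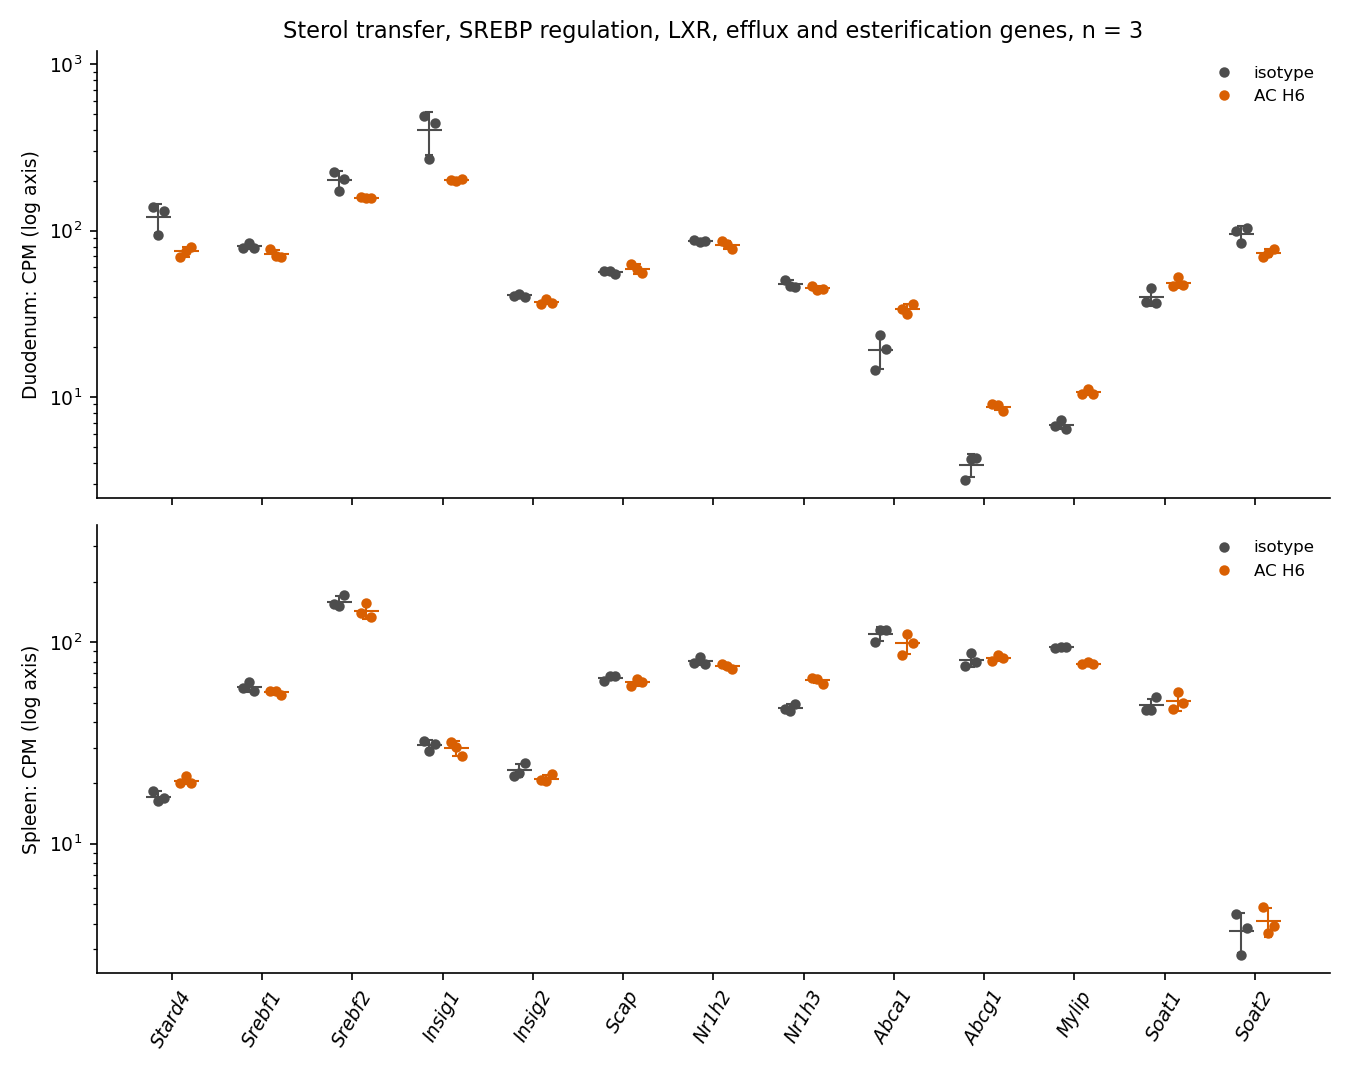
CPM on a log axis for Stard4, the SREBP regulators, the liver X receptor and efflux genes and the esterification enzymes, duodenum above and spleen below, with each library as a point and the mean and SD as bars (n = 3). In the duodenum Insig1 lies lower and Abca1, Abcg1 and Mylip lie higher under AC H6, and in the spleen Nr1h3 lies higher and Mylip lower.

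Marker genes of several cell types moved in the same libraries. Of the 10 enterocyte markers 8 fell and 1, Apoa4, rose, with a median log2 fold change of -0.31, and their summed level went from 34428 to 36252 CPM under isotype to 30506 to 31967 CPM under AC H6, with none at 0. All 8 markers of crypt and dividing cells rose (median 0.53, 621 to 672 CPM under isotype and 889 to 1151 CPM under AC H6). Of the 9 macrophage markers 7 were tested and 6 rose (median 0.91), with summed levels of 366 to 424 CPM under isotype and 486 to 504 CPM under AC H6 and none at 0. Mertk, the tested macrophage marker that did not rise, made up much of these sums. It was at 173 to 230 CPM under isotype and 133 to 174 CPM under AC H6 and was not called. Of the 10 neutrophil markers 8 were tested, 5 rose and 1 fell, and they summed to 57.1 to 61.8 CPM and 97.5 to 116 CPM. Mmp9 and Ltf made up most of these sums. S100a8, S100a9, Ngp and Camp lay at 1.30 CPM or less in every duodenum library. The part of the cell types in the falls and rises of the sterol genes was not tested. In bulk tissue, fewer cells of a type and less RNA per cell cannot be told apart.

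In the spleen, none of the 18 synthesis enzymes passed the test under AC H6, and their median log2 fold change was -0.02. By an unadjusted p under 0.05, 4 of the 18 differed, Pmvk and Hsd17b7 lower and Fdft1 and Ebp higher, and neither DESeq2 nor limma-voom called any of the 18. Over the 15270 genes tested in the spleen 2.06% were called higher and 1.92% lower, with a median of 0.00. Hmgcs1 was at 55.0, 43.5 and 46.9 CPM under isotype and 48.4, 47.7 and 42.2 CPM under AC H6, a log2 difference of -0.06 with a 95% interval of -0.29 to 0.17. Cyp51 stood at 23.7, 21.3 and 25.7 CPM against 23.3, 25.8 and 19.8 CPM (-0.03, 95% interval -0.29 to 0.24). For both genes the groups overlapped, and the intervals do not reach the duodenum's log2 fold changes of -1.12 and -1.06.

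Hsd17b7 showed the lowest value of the 18 in the spleen, -0.30 (SE 0.12, adjusted p = 0.163), and Fdft1 the highest, 0.22 (SE 0.09, adjusted p = 0.168). Stard4 had 18.3, 16.2 and 16.8 CPM under isotype and 20.07, 21.6 and 20.02 CPM under AC H6 (0.27, SE 0.07, adjusted p = 0.0758), with groups that did not overlap and a sign opposite to that in the duodenum. Insig1 was at 32.3, 28.9 and 31.2 CPM and 32.1, 30.1 and 27.1 CPM (-0.04, SE 0.08, adjusted p = 0.774). Srebf1 (-0.08, SE 0.06, adjusted p = 0.387), Srebf2 (-0.15, SE 0.08, adjusted p = 0.281), Insig2 (-0.14, SE 0.07, adjusted p = 0.269), Scap (-0.08, SE 0.06, adjusted p = 0.400) and Nr1h2 (-0.08, SE 0.06, adjusted p = 0.402) did not pass the test either.

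Only Nr1h3 and Mylip were called among the 31 members in the spleen. Nr1h3, the liver X receptor alpha that macrophages express, was at 46.6, 45.4 and 49.4 CPM under isotype and 66.4, 65.8 and 62.2 CPM under AC H6, a 1.38-fold rise (log2 fold change 0.46, SE 0.06, adjusted p = 0.0164). Mylip was at 93.7, 95.2 and 94.5 CPM under isotype and 78.0, 79.4 and 77.6 CPM under AC H6, and fell by 0.27 on the log2 scale (SE 0.05, adjusted p = 0.0395). The libraries of each group lay close together and the groups were clearly apart for both genes. Abca1 had 101, 115 and 115 CPM under isotype and 86.6, 109.6 and 99.5 CPM under AC H6 (-0.16, SE 0.10, adjusted p = 0.325), and Abcg1 had 76.5, 87.9 and 80.1 CPM and 80.4, 86.2 and 83.5 CPM (0.03, SE 0.07, adjusted p = 0.766), with overlapping groups for both.

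Both spleen calls were lost in several fits that left out a library, while the log2 fold changes moved little. That of Mylip lay between -0.277 and -0.254 over all alternatives. The adjusted p of Nr1h3 was 0.0957, 0.0586, 0.0509 and 0.0678 without isotype library 1, isotype library 2, AC H6 library 1 and AC H6 library 3, with log2 fold changes from 0.44 to 0.50. That of Mylip was 0.131, 0.0925, 0.124, 0.0924 and 0.148 without isotype libraries 1, 2 and 3 and AC H6 libraries 1 and 3, and 0.0539 with no filter. With the replicate number as a block, the adjusted p was 0.104 for Nr1h3 and 0.121 for Mylip. In the same spleen libraries, 6 of 9 macrophage markers rose (median 0.37, summed 1148 to 1272 CPM under isotype and 1573 to 1663 CPM under AC H6), 9 of 10 neutrophil markers rose (513 to 782 CPM and 1507 to 2147 CPM), and the 10 erythroid markers summed to 25009 to 73355 CPM and 58181 to 130080 CPM. Markers of crypt and dividing cells summed to 337 to 798 CPM under isotype and 856 to 1572 CPM under AC H6, without overlap. Neither of these last lists had a called gene by edgeR, and 3 of the 10 erythroid and 5 of the 7 tested dividing-cell markers had an unadjusted p under 0.05. Of 6 B cell markers 1 fell (2762 to 2930 CPM under isotype and 2165 to 2494 CPM under AC H6), and of 6 T cell markers 2 fell (403 to 459.5 CPM and 330.0 to 371 CPM), and neither sum overlapped between the groups. Their part in the difference of Nr1h3 and Mylip was not tested.

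The esterification enzymes did not pass the test in the spleen. Soat1 was at 46.3, 46.1 and 53.2 CPM under isotype and 46.3, 56.9 and 49.8 CPM under AC H6 (log2 fold change 0.08, SE 0.09, adjusted p = 0.626). Soat2 was at 4.49, 2.81 and 3.81 CPM and 4.87, 3.58 and 3.89 CPM (0.19, SE 0.20, adjusted p = 0.565).

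**Figure D3:**
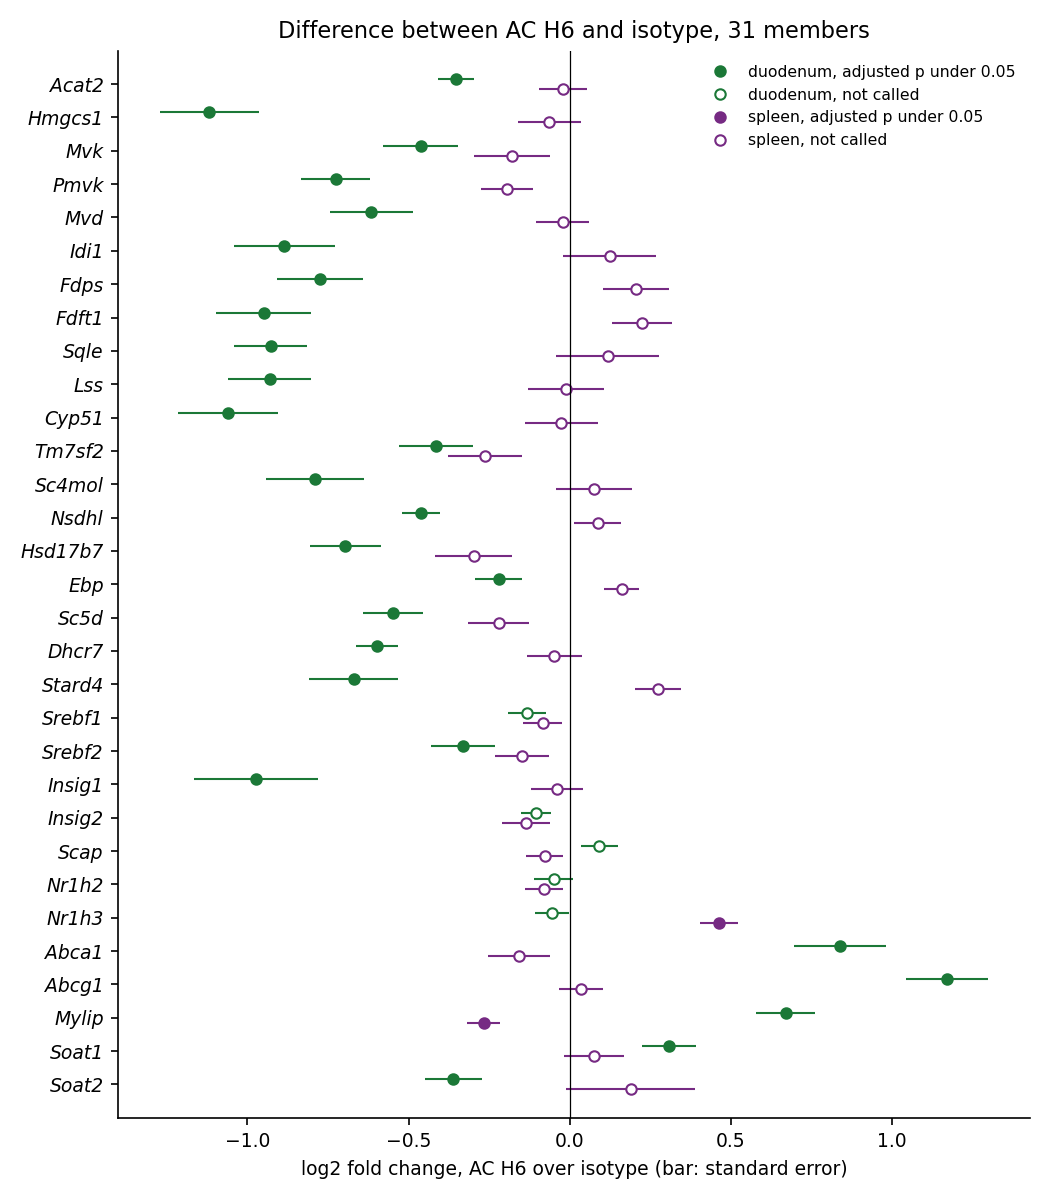
The log2 fold change of AC H6 over isotype for each of the 31 members in the duodenum (green) and the spleen (purple), with the standard error as a bar and filled points for an adjusted p under 0.05. The synthesis enzymes, Stard4 and Insig1 lie left of 0 in the duodenum and between -0.30 and 0.27 in the spleen, and Abca1, Abcg1 and Mylip lie right of 0 in the duodenum.

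The difference between the tissues was tested as an interaction over all 12 libraries, taken as the duodenum's log2 fold change minus the spleen's. It passed for 20 of the 31 members, 17 lower and 3 higher, where 9.13% of the 16655 genes tested were lower and 10.9% higher. Of the synthesis enzymes 14 of 18 were lower, from -0.35 for Acat2 to -1.19 for Fdft1 (SE 0.20, adjusted p = 0.00162), with a median of -0.59 over the 18, where all genes had -0.01. Mvk (-0.31, adjusted p = 0.249), Tm7sf2 (-0.18, adjusted p = 0.508), Hsd17b7 (-0.42, adjusted p = 0.105) and Sc5d (-0.34, adjusted p = 0.0929) did not pass, and all 4 had spleen values of -0.18 to -0.30, in the same direction as in the duodenum. Stard4 (-0.96, SE 0.17, adjusted p = 0.00254) and Insig1 (-0.95, SE 0.24, adjusted p = 0.0153) were lower too.

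Among the efflux genes the interaction was positive: Mylip 0.92 (SE 0.08, adjusted p = 1.96e-05), Abcg1 1.12 (SE 0.13, adjusted p = 0.000173) and Abca1 0.98 (SE 0.20, adjusted p = 0.00557). Mylip was the only member called in both tissues, and it rose in the duodenum and fell in the spleen. Nr1h3 was called lower by -0.54 (SE 0.08, adjusted p = 0.00107), having risen in the spleen. Soat2 missed the threshold at -0.58 (SE 0.21, adjusted p = 0.0727), and passed it with a block for the replicate number within each tissue (-0.55, SE 0.12, adjusted p = 0.0234), with DESeq2 (adjusted p = 0.0250) and without spleen AC H6 library 2 (adjusted p = 0.0421). The interactions of Srebf1, Srebf2, Insig2, Scap, Nr1h2 and Soat1 lay between -0.20 and 0.21 with adjusted p of 0.243 or more. Among the synthesis enzymes Mvd, Acat2 and Pmvk lost the call without some single libraries: the adjusted p of Mvd was 0.0501 to 0.0665 without duodenum AC H6 libraries 2 or 3 or spleen isotype libraries 1 or 2, that of Acat2 was 0.102 without spleen isotype library 1 and 0.0502 without spleen AC H6 library 3, and that of Pmvk was 0.0547 without spleen isotype library 3. Without duodenum isotype library 2, Hsd17b7 (adjusted p = 0.0174) and Sc5d (adjusted p = 0.0266) were called as well.

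Under isotype alone the enzymes and the efflux members differed between the tissues in opposite directions. All 18 synthesis enzymes were higher in the duodenum than in the spleen, by 1.88-fold for Pmvk to 10.5-fold for Sc4mol, with a median log2 difference of 2.20 where all 16029 genes tested had -0.05, 42.2% being higher and 43.8% lower. None of the 18 lay above the 95th percentile of all genes, a log2 difference of 6.21. Insig1 was 12.8-fold higher (log2 3.68, SE 0.22, adjusted p = 8.02e-07), Stard4 6.96-fold (log2 2.80, SE 0.15, adjusted p = 3.6e-07) and Soat2 26.1-fold (log2 4.71, SE 0.17, adjusted p = 3.11e-08). Among the members, the efflux genes were lower in the duodenum: Abcg1 21.1-fold (log2 -4.40, SE 0.12, adjusted p = 6.15e-09), Mylip 14.1-fold (log2 -3.82, SE 0.07, adjusted p = 7.05e-10) and Abca1 5.83-fold (log2 -2.54, SE 0.16, adjusted p = 1.08e-06). Of these, Abcg1 and Mylip lay below the 5th percentile of all genes, a log2 difference of -3.67. The regulators were closer between the tissues, with log2 differences of 0.40 for Srebf1, 0.31 for Srebf2, 0.79 for Insig2 and -0.27 for Scap, all called, and 0.08 for Nr1h2 and -0.01 for Nr1h3, which were not (adjusted p = 0.162 and 0.843). Soat1 was 1.24-fold lower (adjusted p = 0.0174). Srebf2 lost its call without duodenum isotype library 1 (adjusted p = 0.0535) and without spleen isotype libraries 1 (0.0798) or 2 (0.0686), and Soat1 without duodenum isotype libraries 1 (adjusted p = 0.0618) or 3 (0.0717) or spleen isotype library 3 (0.0575). Nr1h2 was called with DESeq2 size factors (log2 0.15, adjusted p = 0.0263).

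By exon length the order of the enzymes differed between the tissues. In the duodenum under isotype the highest were Hmgcs1 at 111 RPKM, Sc4mol at 79.7, Fdps at 76.2, Idi1 at 51.9, Ebp at 50.7 and Cyp51 at 46.5 RPKM, and the lowest were Lss at 8.86 and Hsd17b7 at 10.97 RPKM. In the spleen under isotype the order began with Fdps at 14.1, Hmgcs1 at 13.9 and Ebp at 12.03 RPKM, and ended with Lss at 2.12 and Hsd17b7 at 1.33 RPKM. In the spleen Mylip stood at 29.2 RPKM, above every enzyme, and Abcg1 at 11.9 and Abca1 at 10.7 RPKM came after only those 3 enzymes. In the duodenum these efflux genes were at 2.10, 0.570 and 1.87 RPKM, below every enzyme.

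A single number per library sets synthesis against efflux: the mean log2 CPM of the 18 enzymes minus that of Abca1, Abcg1 and Mylip. It was 3.59, 2.81 and 3.32 in the isotype libraries of the duodenum and 1.65, 1.61 and 1.69 in the AC H6 libraries, a mean difference of -1.59. The treated libraries lay within 0.1 of each other and below all control libraries. In the spleen it was -2.44, -2.76 and -2.61 under isotype and -2.36, -2.53 and -2.60 under AC H6, a mean difference of 0.11 with overlapping groups. The duodenum change had parts on both sides, since the enzyme mean went from 5.99 to 6.36 down to 5.48 to 5.56 and the efflux mean from 2.77 to 3.18 up to 3.87 to 3.89. No test is given for this value, because the genes in it were chosen with results known. It leaves out Abcg5 and Abcg8, sterol exporter genes that stood higher in the duodenum than Abca1, Abcg1 and Mylip and fell there (below). The efflux mean therefore does not stand for sterol export genes as a whole, and Mylip encodes a ubiquitin ligase.

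**Figure D4:**
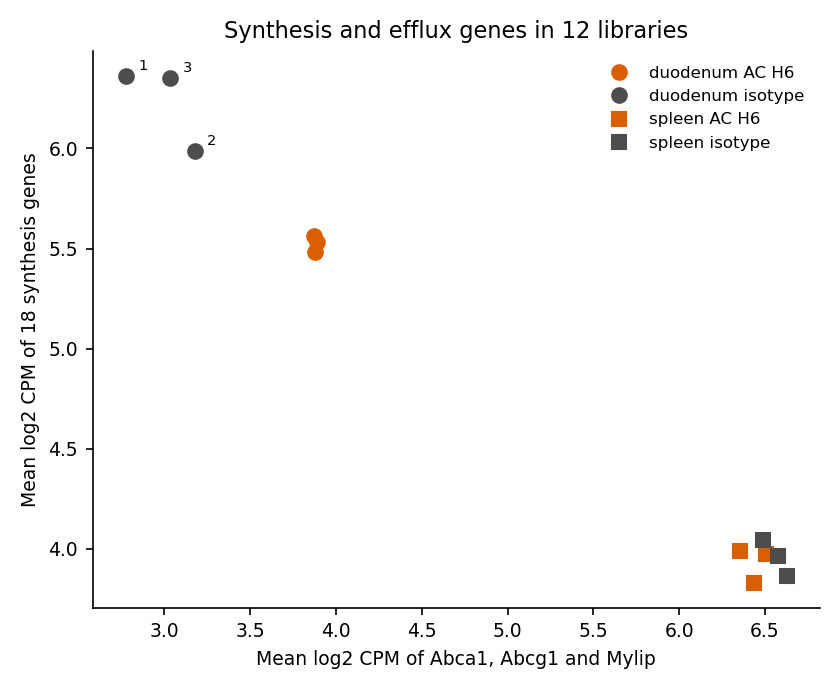
Mean log2 CPM of the 18 synthesis enzymes against that of Abca1, Abcg1 and Mylip for the 12 libraries, with circles for duodenum, squares for spleen, grey for isotype and orange for AC H6, and replicate numbers beside the duodenum isotype libraries. The AC H6 duodenum libraries lie below and to the right of the isotype ones, isotype library 2 is the nearest to them, and the spleen libraries of both treatments lie together at lower right.

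Neighbouring pathway genes did not follow the enzymes as a block. The counts of called genes in the 5 lists that follow stand against 16.1% of all genes lower and 18.5% higher in the duodenum, and no difference of these lists from that background was tested. Of 8 genes of isoprenoid and sterol side branches in the duodenum 1 fell and 2 rose. Pdss1, which makes the side chain of ubiquinone, had a log2 fold change of -0.55 (adjusted p = 0.000628). Cyp7b1, an oxysterol hydroxylase, rose by 1.74 (adjusted p = 0.000120), and Ch25h, which hydroxylates cholesterol, by 1.02 (adjusted p = 0.00668). Cyp7b1 went from 1.83 to 2.16 CPM to 5.87 to 7.65 CPM. Of 10 fatty acid genes of SREBP1 and liver X receptors 3 fell and 4 rose, among them the elongase Elovl6 (-0.70, adjusted p = 0.000875) and the liver X receptor target Lpcat3 (-0.47, adjusted p = 0.00110) lower, Fasn lower (-0.24, adjusted p = 0.0295) and Acly higher (0.30, adjusted p = 0.00718).

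The apical and secreted export genes went in both directions. Abcg5 and Abcg8, the subunits of the transporter that returns sterol from enterocytes to the lumen, were at 195 to 234 and 133 to 162 CPM under isotype and 128 to 155 and 92.8 to 106 CPM under AC H6, and each fell by 0.57 on the log2 scale (SE 0.09, adjusted p = 0.00282 and 0.00198). In this list of 6 genes, 2 fell and 2 rose, and Pltp (0.32, adjusted p = 0.00804) and Apoa1 (0.19, adjusted p = 0.0371) were those that rose. The enterocyte markers named above fell by a median of -0.31 in these libraries, and their part in the fall of Abcg5 and Abcg8 was not tested.

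Uptake and storage genes were mixed. Of 7 lipoprotein and sterol uptake genes in the duodenum 2 rose and 2 fell: the macrophage scavenger receptor Msr1 (1.20, adjusted p = 0.000374) and Lrp8 (0.54, adjusted p = 0.0445) rose, and Cd36 (-0.53, adjusted p = 0.00194) and Lrp1 (-0.33, adjusted p = 0.00457) fell. In the spleen, where 2.06% of all genes were called higher and 1.92% lower, 3 of the 7 uptake genes were called. Msr1 rose by 0.76 (adjusted p = 0.0366) and Scarb1, the high-density lipoprotein receptor, by 0.35 (adjusted p = 0.0271), and Lrp8 fell (-0.67, adjusted p = 0.0251). Of 5 genes of lysosomal release and ester hydrolysis in the duodenum, Nceh1 (0.28, adjusted p = 0.00621) and Npc2 (0.22, adjusted p = 0.0311) rose and Lipa (-0.20, adjusted p = 0.0197) and Lipe (-0.23, adjusted p = 0.0450) fell.

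Some member rows can share reads with overlapping genes, because no strand setting is stated for the counting. Exons of Fdft1 overlap those of Ctsb on the other strand over 774 of 3698 bp. Ctsb was at 739 to 791 CPM under isotype and 754 to 776 CPM under AC H6 in the duodenum (log2 fold change 0.01, adjusted p = 0.898) and rose by 0.40 in the spleen (adjusted p = 0.0409), where Fdft1 had 0.22. Hmgcs1, Idi1, Lss and Scap overlap predicted or uncharacterised genes on the other strand over 557, 323, 381 and 785 bp, Cyp51 overlaps Akap9 over 166 bp and Srebf1 overlaps Rai1 over 109 bp. Fdps shares 1124 of its 1453 bp with a predicted gene on the same strand, so its reads could be split. Acat2 has the close paralogue Acat3, which differed by -0.03 in the duodenum (adjusted p = 0.752) against -0.35 for Acat2.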

How the data were processed

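The authors deposited 1 table of counts per library with 23329 gene symbols. The counts include reads that match several places, per the file headers (multiMatchCounts). The submitters' processing notes name bcl2fastq 2.19, Trimmomatic, STAR 2.3, edgeR and the build mm10, and the counter, annotation and strand setting were not given in the sources used here. Total counts were 13874091 to 45847467 per library, and 2989 rows were 0 in every library. Groups were taken from the labels.

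Genes were filtered with filterByExpr and scaled by TMM, and differences were tested with edgeR 4.0.16 (R 4.3.3) quasi-likelihood F-tests, with Benjamini-Hochberg adjustment over all genes tested and a threshold of 0.05. There was 1 fit per tissue (6 libraries), 1 of all 12 libraries for the interaction and 1 of the isotype libraries for the tissues. Printed CPM used 1 TMM scaling of all 12 libraries, log2 CPM a prior count of 2, and RPKM the union of exons in GENCODE M21 (GRCm38). The SE is the log2 fold change divided by the square root of F. Alternatives were DESeq2 1.42.0 and its size factors, limma-voom 3.58.1, no filter, abundant rows left out, each library left out in turn, a block for the replicate number (within each tissue for the interaction) and 1 fit of 12 libraries. A fit without duodenum isotype 2 and AC H6 3 was chosen after seeing the data. The code was tested on simulated counts.

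Deviations from the group means were correlated between libraries of the same number. For the tissues under isotype the correlations were 0.31, 0.48 and 0.14 for numbers 1 to 3. Spleen isotype 3 and duodenum isotype 1, of unlike numbers, had 0.11, so these values do not settle whether numbers pair libraries. Within spleen the same-number correlations were 0.38, -0.07 and 0.03, and within duodenum 0.58, 0.33 and -0.21. Replicates differed by more than sampling noise (chi-square per degree of freedom 25.9 to 254.8).

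The members, lists, markers and index were chosen with earlier results of these data known. Every member was named, and of the other pathway lists at most 4 called genes of smallest p per list and comparison.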

Additional observations from a re-analysis of the deposited data

Results flagged for a closer look

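The interaction over all 12 libraries (edgeR quasi-likelihood test) was called for 20 of the 31 members, which means that the AC H6 difference was not the same in the duodenum and the spleen. The duodenum log2 fold change minus the spleen one was -0.35 for Acat2, -1.07 for Hmgcs1, -0.55 for Pmvk, -0.61 for Mvd, -1.02 for Idi1, -0.998 for Fdps, -1.19 for Fdft1, -1.07 for Sqle, -0.94 for Lss and -1.05 for Cyp51. It was -0.88 for Sc4mol, -0.57 for Nsdhl, -0.40 for Ebp, -0.57 for Dhcr7, -0.96 for Stard4, -0.95 for Insig1 and -0.54 for Nr1h3. It was 0.98 for Abca1, 1.12 for Abcg1 and 0.92 for Mylip. Mylip is the member whose difference was called in both tissues with opposite signs.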

How the results depend on the processing

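The 4 comparisons were refitted under each alternative. In the duodenum no member changed direction in any alternative, 21 of the 26 called members kept the call in all of them, and leaving out each library gave 21 to 25 members and 3979 to 4753 genes called. In the interaction 17 of 20 kept the call, with 18 to 22 members and 2556 to 3651 genes when a library was left out, and between the tissues 27 of 29, with 27 to 29 members and 13465 to 13901 genes. In the spleen neither of the 2 calls held throughout: leaving out a library gave 0 to 2 members and 14 to 1132 genes called in place of 608 (lowest without isotype 1, highest without AC H6 2), no filter gave 1 member, DESeq2 1356 genes, 1 fit of all 12 libraries 1390 genes, and the replicate block 0 members and 1 gene. With the replicate block the duodenum had 26 members, the interaction 21 and the tissues 29, where the block added Soat2 to the interaction (adjusted p = 0.0234) and changed no call in the duodenum or in the comparison of the tissues under isotype. In the interaction the block was the replicate number within each tissue, so it paired isotype with AC H6 libraries. A block that paired spleen with duodenum libraries was not fitted for the interaction.

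Spleen values near 0 changed sign when a library was left out, over ranges of -0.138 to 0.0348 for Hmgcs1, -0.111 to 0.000536 for Dhcr7, -0.00716 to 0.0914 for Abcg1, -0.0207 to 0.274 for Idi1, -0.0283 to 0.200 for Sc4mol, -0.0561 to 0.0421 for Acat2, -0.0853 to 0.0274 for Mvd, -0.0756 to 0.0800 for Lss, -0.116 to 0.0696 for Cyp51, -0.0373 to 0.253 for Sqle, -0.0113 to 0.149 for Soat1 and -0.0998 to 0.0255 for Insig1, and Lss was 0.0121 with limma-voom. The interaction ranged from -0.0316 to 0.103 for Insig2 and -0.0284 to 0.0758 for Nr1h2, and the tissue difference of Nr1h3 from -0.0559 to 0.0307, with 0.0520 by DESeq2 and 0.0526 with its size factors in edgeR. The synthesis minus efflux difference was -1.24 in the duodenum with medians and -1.21 with Nr1h2 and Nr1h3 among the efflux genes, which made the spleen value -0.0233, and leaving out a library gave -1.81 to -1.42 and 0.0262 to 0.187. The cause of these shifts was not tested. With 3 libraries a group the spleen values are bounded loosely, the 95% interval of Sqle there being -0.25 to 0.49.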
